A study of Mus musculus with 4 samples.

Results

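The *Sox* genes encode transcription factors that bind DNA through an HMG box, and 9 of them were followed here in the E14.5 mouse cochlear duct: *Sox1*, *Sox2*, *Sox3*, *Sox4*, *Sox8*, *Sox9*, *Sox10*, *Sox11* and *Sox21*. They were taken by their gene symbol, with all of their probes. The 9 genes are part of 29924 gene names on the array and are read by 14 of its 39429 probes. All 9 genes and all 14 probes were bright enough to be tested, and each probe was well above background in all 8 RNA pools.

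RNA came from whole cochlear ducts of NMRI embryos, dissected without the spiral ganglion, on 4 arrays that each set a *Sox2-Tbx2LOF* pool against a control pool. *Sox2-Tbx2LOF* embryos carried Sox2(creERT2), a tamoxifen-dependent Cre recombinase inserted at *Sox2*, together with Tbx2(fl/fl). Controls were labelled Tbx2(fl/n.d.), one *Tbx2* allele being undetermined, and per the study's methods they carried no Cre. Per the same methods, the mutants carried the insertion on 1 *Sox2* allele. A difference between mutant and control therefore cannot be split between loss of *Tbx2* and the insertion at *Sox2*. All dams received 4 mg of tamoxifen at E12.5. The 2 pools on an array were of 1 sex, female on arrays 1 and 2 and male on arrays 3 and 4, and the dyes were swapped within each sex (mutant in Cy5 on arrays 1 and 3, in Cy3 on the others). Recombination is limited to cells that express *Sox2*, so the pools mixed cells with and without *Tbx2*, and a change in how many cells express a gene could not be told apart from a change in RNA per cell.

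SOX proteins fall into groups of close relatives. The SOXB1 factors SOX1, SOX2 and SOX3 keep neural and sensory progenitors in place, and SOX2 marks the prosensory domain from which hair and supporting cells arise. SOX21, of group B2, represses genes that the B1 factors activate. The SOXC factors SOX4 and SOX11 act in differentiating neurons and in hair cell formation. SOX8, SOX9 and SOX10 form group E and act in the otic placode, cartilage, neural crest and glia, and SOX10 is present both in otic epithelium and in Schwann cell precursors.

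Values below are of 2 kinds. A level is the normalized log2 signal of a probe in 1 pool, and levels of different probes are not comparable. A ratio is the log2 of mutant over control on 1 array, so that 0 means no difference. The test was limma on the ratios, fitted with a dye effect, p was adjusted over all 21042 genes tested, and the threshold was an adjusted p below 0.05. The median spot signal was 263 to 292 for the Cy3 channel, over a local background of 25, and 496 to 563 for Cy5, over 85 to 95. Nothing in the labels says that pools came from separate litters, so p-values do not measure the spread between litters. They rest on the spread between these pools after the dye effect, which limma draws toward a spread shared by all tested genes. Ratios of all genes correlated at 0.616 and 0.679 between arrays that shared a dye direction and at −0.10 to 0.071 between the others, a description across genes that are not replicates. The deleted gene *Tbx2* had a ratio of −0.12 ± 0.098 (SD, n = 4), below 0 on 4 of 4 arrays, and did not pass the threshold (adjusted p = 0.124). Whether its probe lies in the deleted part was not analysed here. *Esr1*, the receptor gene whose hormone-binding part is fused to Cre in CreERT2, was well above background in 4 mutant pools and 0 control pools, at least 4.24-fold brighter in the mutant (adjusted p = 5.96e-06).

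The probes that the findings rest on are printed first, as the first 30 of their 60 bases, 5′ to 3′, as the files give them. *Sox21* and *Sox3* are shown because they passed the threshold, *Sox8* because it had the largest ratio,, *Sox2* because its locus carries the Cre insertion, and *Sox10* because it is set beside glial markers further on. No letters are in capitals here.
Sox21 probe 1: tatatgagagatgaccgccgttccttttgt
Sox21 probe 2: agagcgtgtggatttcgcagcatcattccc
Sox3 probe: ggaaggggttattttgttccaggttttttc
Sox8 probe: atatttgctcacatttgagaagtttcgctt
Sox2 probe: tggcaatcaaatgtccattgtttataagct
Sox10 probe: tacagtctacctttgccttgcaccctttgc

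On mm9, the build named in the file headers, *Sox21* is read on the minus strand of chromosome 14 at chr14:118633351-118633410 and chr14:118633788-118633847. *Sox3* is read at chrX:58144564-58144623, *Sox8* at chr17:25703094-25703153 and *Sox10* at chr15:78985518-78985577, all on the minus strand, and *Sox2* at chr3:34550773-34550832 on the plus strand. Whether these stretches are coding or untranslated was not analysed here, as no mm9 annotation was used. *Sox* genes are alike in the HMG box, so the probes were compared with each other. Over 281 pairs of probes from different *Sox* genes, with at least 1 of the 9 genes in each pair, the longest stretch shared on either strand was 13 bases and the median 6. The 13 bases are shared by the third *Sox4* probe and the *Sox15* probe and stand in capitals in bases 17 to 46 of the *Sox4* probe.
Sox4 probe 3: ctaccctgACTACAAGTACCGgccgcgaaa
*Sox15* was not well above background in any pool.

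Of the 9 *Sox* genes, *Sox3* was higher and *Sox21* lower in *Sox2-Tbx2LOF* ducts, and the other 7 did not pass the threshold. Among all tested genes, 2.26% were higher and 2.92% lower, so 2 of 9 stands beside a background of 5.18%. No member reached the 1.5-fold minimum of the study's methods (0 of 9, where 0.442% of all genes did and also passed, 0.133% higher and 0.309% lower), while 3 of 9 had an unadjusted p below 0.05 from limma, as did 20.2% of all tested genes. The ratios of the 9 genes ran from −0.27 to 0.21 with a median of 0.010, against a median of 0.0024 over all tested genes. For 6 of 9 the mean ratio lay within 0.1 of 0 on the log2 scale.

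**Figure D1:**
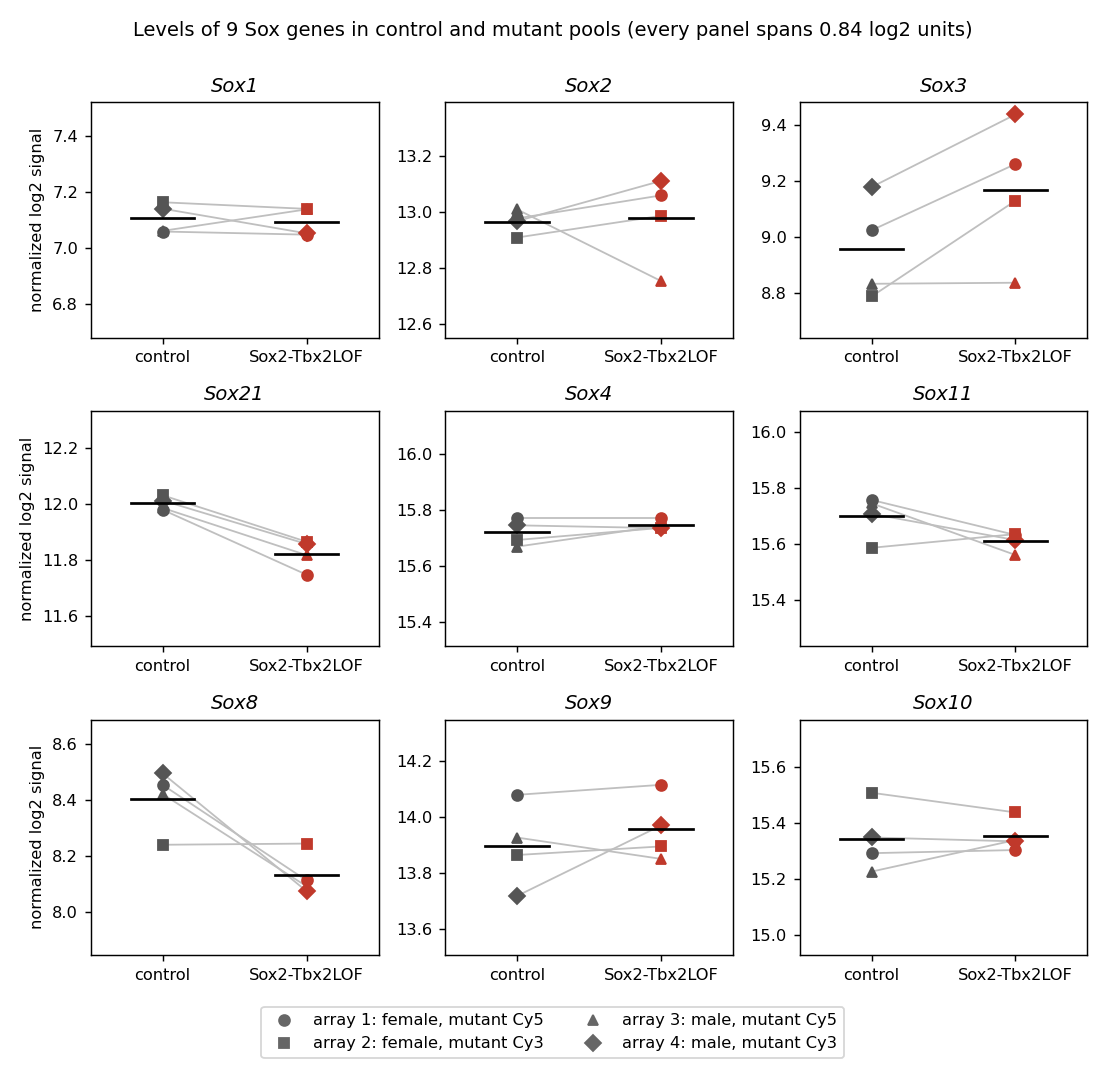
Normalized log2 signal of the brightest probe of each of 9 *Sox* genes in 4 control (grey) and 4 *Sox2-Tbx2LOF* pools (red); marker shape gives the array, lines join the pools of an array, bars are group means and every panel spans the same number of log2 units. *Sox21* is the gene whose groups are separate, *Sox8* levels nearly meet on array 2, and the *Sox2* level of mutant pool 3 lies below all other pools.

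*Sox21* was the member with the most even difference between the groups. Its level on the brighter probe was 11.98, 12.03, 11.98 and 12.01 in control pools 1 to 4, and 11.75, 11.86, 11.82 and 11.86 in mutant pools 1 to 4. All mutant pools were lower than all control pools, which was so for no other member, and levels of the groups were separate in either direction for 4.28% of all tested genes. The ratios were −0.23, −0.17, −0.17 and −0.16 on arrays 1 to 4, lower on 4 of 4 arrays, as were 9.31% of all genes. Their mean of −0.18 ± 0.035 (SD over 4 arrays; SE 0.034 and adjusted p = 0.0278 in limma) corresponds to a fold of 1.13, with a 95% interval of mutant over control from 0.835 to 0.933. The dimmer probe of the gene had levels of 10.03, 10.15, 9.84 and 10.05 in controls and 9.88, 9.95, 9.94 and 9.83 in mutants, and here the groups overlapped. Its ratios were −0.15, −0.20, 0.098 and −0.22, and it did not pass when all 27963 tested probes were fitted singly (adjusted p = 0.230), where the brighter probe did (adjusted p = 0.0355). In that fit 1 of 14 *Sox* probes passed, against 3.99% of all probes. With any 1 array left out, the dye effect was still fitted, so the limma estimate is not the plain mean of the remaining arrays. The brighter probe kept an estimate between −0.20 and −0.16, but the adjusted p rose to between 0.0696 and 0.118. *Sox21* also lost the threshold with the mean of both probes (−0.15, adjusted p = 0.0644) and when mutant and control pools were compared unpaired (adjusted p = 0.135).

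*Sox3*, an X-linked SOXB1 gene of neural progenitors, was higher in the mutant. Its levels were 9.02, 8.79, 8.83 and 9.18 in control pools 1 to 4 and 9.26, 9.13, 8.84 and 9.44 in mutant pools. The pools of arrays 1 and 4 were the highest in both groups, and the groups overlapped. The ratio was 0.24, 0.34, 0.0038 and 0.26 on arrays 1 to 4, above 0 on 4 of 4 arrays (8.85% of all genes were), but hardly so on array 3. The mean of 0.21 ± 0.15 (SD over 4 arrays; SE 0.046 and adjusted p = 0.0431 in limma) corresponds to a fold of 1.16, with a 95% interval from 1.07 to 1.25. In the fit over single probes the same *Sox3* probe missed the threshold (adjusted p = 0.0534). It also did so with any 1 array left out, at limma estimates of 0.15 to 0.27 and adjusted p of 0.0509 to 0.150. The same held when mutant and control pools were compared unpaired (adjusted p = 0.794).

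*Sox2*, the prosensory factor whose locus carries the CreERT2 insertion in the mutant, did not pass the threshold. Control pools had levels of 12.98, 12.91, 13.01 and 12.97, and mutant pools 13.06, 12.99, 12.75 and 13.11. Mutant pool 3 was the lowest of the 8 and mutant pools 1 and 4 the highest. The ratios of 0.082, 0.078, −0.26 and 0.14 gave a mean of 0.012 ± 0.18 (adjusted p = 0.935), with a 95% interval from −0.12 to 0.14 on the log2 scale. Without array 3 the limma estimate, with the dye effect fitted, was 0.096 (adjusted p = 0.362), and without array 1 it was −0.073 (adjusted p = 0.383). Whether the *Sox2* probe also reads RNA made from the inserted allele was not analysed here.

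*Sox1*, the remaining SOXB1 gene, had levels of 7.06, 7.16, 7.06 and 7.14 in control pools and 7.05, 7.14, 7.14 and 7.05 in mutant pools. The groups covered the same range. Its mean ratio was −0.012 ± 0.068 (SD, n = 4; adjusted p = 0.902) and that of its second probe 0.038 ± 0.065.

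**Figure D2:**
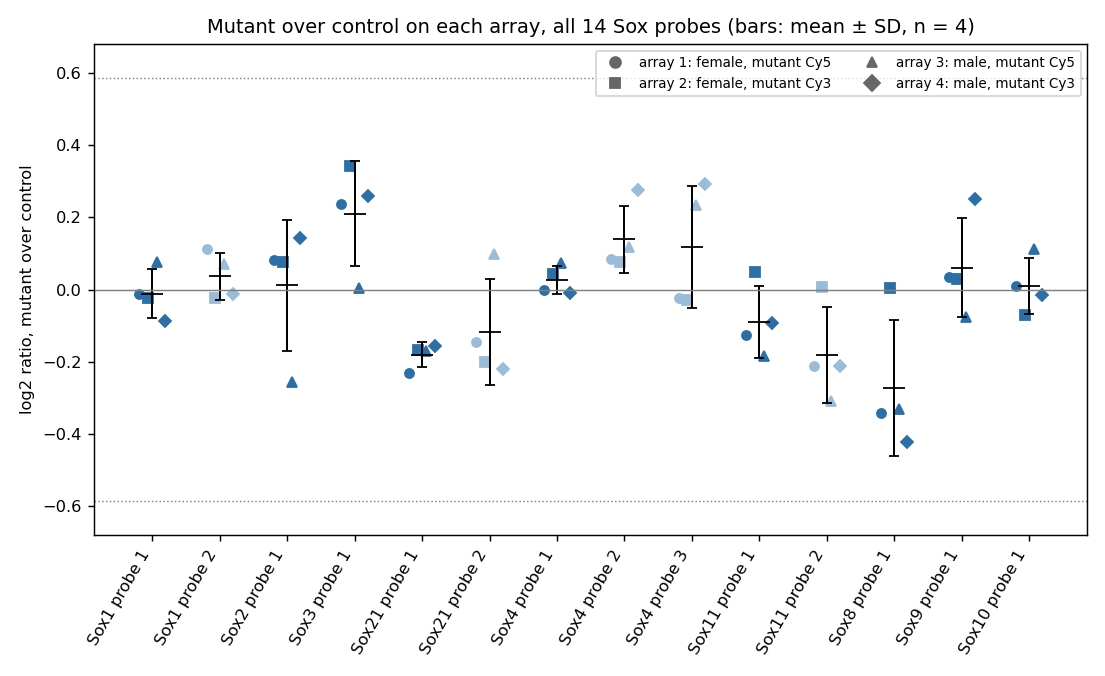
Log2 ratio of mutant over control on each of 4 arrays for all 14 *Sox* probes, with mean ± SD (n = 4); dark points are the probes that stand for their gene, pale points the others, and dotted lines mark a fold of 1.5. All points lie inside the dotted lines, and the first *Sox21* probe has the smallest spread (SD 0.035).

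The SOXC genes *Sox4* and *Sox11* did not pass the threshold, and *Sox11* leaned lower. *Sox11* had levels of 15.76, 15.59, 15.75 and 15.71 in control pools and 15.63, 15.64, 15.56 and 15.62 in mutant pools. Control pool 2 was the exception to higher control levels, and its array was the one with a ratio above 0. The ratios were −0.13, 0.049, −0.18 and −0.094 (mean −0.089 ± 0.099, adjusted p = 0.254). The second *Sox11* probe, at chr12:28019541-28019600, gave −0.21, 0.0068, −0.31 and −0.21, again lowest on array 3 and above 0 on array 2 alone, and its mean of −0.18 ± 0.13 did not pass over all probes (adjusted p = 0.0797). *Sox4* had levels of 15.77, 15.69, 15.67 and 15.75 in control pools and 15.77, 15.74, 15.74 and 15.74 in mutant pools, a mean ratio of 0.027 ± 0.039 (adjusted p = 0.735). Its other probes gave 0.14 ± 0.094 and 0.12 ± 0.17, neither past the threshold over all probes (adjusted p = 0.134 and 0.366).

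Among the SOXE genes, *Sox8* had the largest ratio of all 9 members and just missed the threshold. Its levels were 8.45, 8.24, 8.42 and 8.49 in control pools and 8.11, 8.24, 8.09 and 8.07 in mutant pools. On arrays 1, 3 and 4 the mutant was clearly lower, whereas on array 2 both pools were at the same level. The ratios were −0.34, 0.0042, −0.33 and −0.42, with a mean of −0.27 ± 0.19 (SD over 4 arrays; SE 0.064 and adjusted p = 0.0553 in limma) and a 95% interval of mutant over control from 0.747 to 0.918. Without array 2 the limma estimate, with the dye effect fitted, was −0.38 and passed the threshold (adjusted p = 0.00128). Without array 4 the estimate was −0.17 (adjusted p = 0.126). Without array 1 or array 3 it was −0.27 and did not pass (adjusted p = 0.202 and 0.261). *Sox8* also did not pass when mutant and control pools were compared unpaired (adjusted p = 0.135). A single probe reads the gene on this array.

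*Sox9*, which acts in the otic placode and in cartilage, had levels of 14.08, 13.87, 13.93 and 13.72 in control pools and 14.12, 13.90, 13.85 and 13.97 in mutant pools. The spread among control pools was larger than the difference between the groups. The mean ratio was 0.060 ± 0.14 (SD, n = 4; adjusted p = 0.530), and array 4 alone gave 0.25.

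*Sox10*, a defining gene of glia and also of otic epithelium, had levels of 15.29, 15.51, 15.23 and 15.35 in control pools and 15.30, 15.44, 15.34 and 15.33 in mutant pools. The groups overlapped throughout. Ratios of 0.011, −0.070, 0.11 and −0.014 averaged 0.0099 ± 0.077 (SD, n = 4; adjusted p = 0.917). The 95% interval of mutant over control ran from 0.949 to 1.07.

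A list of genes known from the glia in which *Sox10* is expressed was mostly lower on the same arrays. Of 10 Schwann cell precursor genes tested, 6 fell and 1 rose, and the median ratio was −0.61. In this and the later marker lists, genes counted as fallen or lower, or as risen or higher, passed the threshold. Over all tested genes 2.92% were lower and 2.26% higher in that sense. The 3 with the lowest p were *Fabp7*, a fatty acid binding protein of early glia (−1.03 ± 0.14), *Foxd3*, a neural crest factor (−1.17 ± 0.22), and *Dhh*, a hedgehog ligand of Schwann cells (−0.88 ± 0.10; SD, n = 4 each). Per the paper, *Fabp7* has also been described in the epithelium, in the part of the hearing organ that holds inner hair cells. Which cells the lower *Fabp7* signal came from was not tested. The mean ratio over the list was −0.47, −0.44, −0.52 and −0.55 on arrays 1 to 4, so each array had the list below 0 while *Sox10* varied around it. The mean level of the list ran from 10.65 to 10.85 in control pools and from 10.21 to 10.38 in mutant pools. Each of the 10 was above background in every pool, and not all of them fell. *Erbb3*, a neuregulin receptor gene, and *Gfra3*, a neurotrophic factor receptor gene, had ratios of −0.085 ± 0.13 and −0.047 ± 0.11 and did not pass, and both were named after their values were seen. The difference in response between *Sox10* and the list was not tested.

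Melanocytes of the cochlear wall arise from *Sox10*-expressing precursors, and of 10 melanocyte genes none passed the threshold in limma (0 of 10, with 3 at an unadjusted p below 0.05, where 20.2% of all genes were). The median ratio was 0.013, and the mean level of the list was 10.79 to 10.95 in control and 10.79 to 10.94 in mutant pools. Neuronal genes, where SOX4 and SOX11 are known to act, were lower in 8 and higher in 1 of 12 tested, with a median ratio of −0.37. *Elavl3*, an RNA-binding protein of neurons, had −1.08 ± 0.36, *Pou4f1*, a sensory neuron factor, −0.75 ± 0.13, and *Nefl*, a neurofilament, −0.48 ± 0.098 (SD, n = 4 each). The exception that rose was *Isl1* (0.20 ± 0.16, adjusted p = 0.0245), which is also expressed in the prosensory domain and was named after its value was seen. Of the list's 14 genes, *Neurod1* and *Neurog1* were too dim to be tested. The mean level of the neuron list was 10.74 to 10.99 in control and 10.43 to 10.59 in mutant pools. The part of these cells in the levels of *Sox8*, *Sox11* and *Sox21* was not tested.

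**Figure D3:**
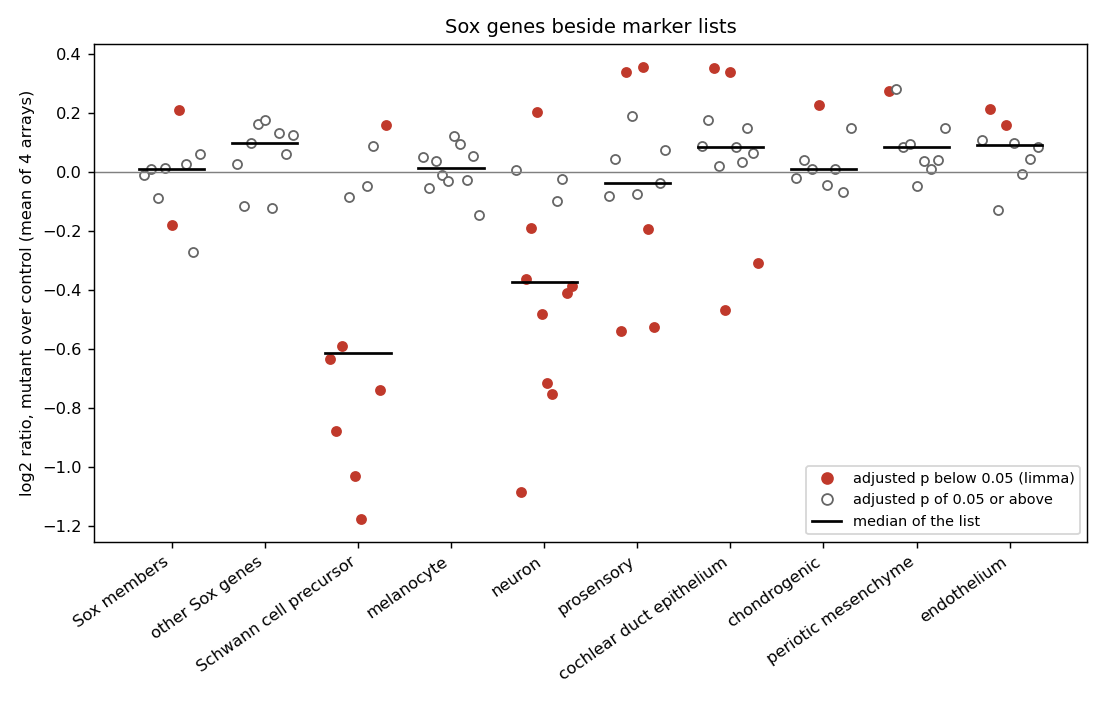
Mean log2 ratio of mutant over control (4 arrays) of each tested gene of the *Sox* family and of 8 marker lists; filled red points passed an adjusted p below 0.05 from limma, open points did not, and bars are list medians. The 9 *Sox* genes lie between −0.27 and 0.21, while 6 of 10 Schwann cell precursor genes and 8 of 12 neuron genes are filled and below 0.

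Genes of the cochlear duct epithelium were examined as well, and all 11 were bright enough to be tested. Of these, *Emx2* (0.35 ± 0.13) and *Gata3* (0.34 ± 0.13), both otic transcription factor genes, rose, and *Fgf10* (−0.47 ± 0.053), a growth factor of the duct floor, and *Tecta* (−0.31 ± 0.12), a tectorial membrane gene named after its value was seen, fell. Genes expressed with *Sox2* in the prosensory domain moved in both directions, with 2 of 11 higher, 3 lower and a median of −0.039, beside a *Sox2* ratio of 0.012. *Hey2*, a Notch-related repressor, rose by 0.36 ± 0.033, and *Lfng*, a modifier of Notch, and *Fgf20*, a growth factor, fell by 0.52 ± 0.069 and 0.54 ± 0.15 on the log2 scale. The remaining gene that fell was *Jag1*, a Notch ligand of prosensory cells named after its value was seen (−0.19 ± 0.077, adjusted p = 0.0278). *Gata3* stands in both lists. Of cartilage genes, in which SOX9 is active, 1 of 8 passed, *Col9a1* (0.22 ± 0.13), and the median was 0.0089. Of 9 genes of periotic mesenchyme 1 passed, *Col1a1* (0.27 ± 0.12), with a median of 0.084.

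The *Sox* family beyond the 9 members was examined in 11 further genes, of which 9 were tested. *Sry* and *Sox15* were not well above background in any pool. None of the 9 passed the threshold in limma (0 of 9, with 7 at an unadjusted p below 0.05, where 20.2% of all genes were), the median ratio was 0.099, and 7 of 9 were above 0. In 12 of 15 alternatives none was higher past the threshold, and in the rest 1 was. The SOXF genes, which act in endothelium, all had ratios above 0, with 0.18 ± 0.25 for *Sox18* (adjusted p = 0.0520), 0.16 ± 0.14 for *Sox17* (adjusted p = 0.0802) and 0.12 ± 0.19 for *Sox7* (adjusted p = 0.128). Of 8 endothelial genes 2 rose, *Cldn5*, a tight junction gene (0.21 ± 0.037), and *Esam*, an adhesion molecule (0.16 ± 0.066), and the mean level of that list was 11.96 to 12.05 in control and 12.02 to 12.17 in mutant pools. Neither passed (0 of 8) in 8 of 15 alternatives, among them the unpaired comparisons and those without array 1, 3 or 4. *Sox5* and *Sox6*, partners of SOX9 in cartilage, had 0.13 ± 0.041 (adjusted p = 0.0851) and 0.062 ± 0.11, and *Sox13* of the same group had −0.12 ± 0.14. *Sox12*, the third SOXC gene, had 0.028 ± 0.11 and *Sox14*, the other SOXB2 gene, 0.099 ± 0.085. *Sox30*, well above background in 3 of 4 mutant and 4 of 4 control pools, had −0.12 ± 0.095.

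Female and male pools were compared because each array held 1 sex. The mean ratio of *Sox8* was −0.17 in female and −0.38 in male pools, that of *Sox3* 0.29 and 0.13, that of *Sox2* 0.080 and −0.056, and that of *Sox21* −0.20 and −0.16. No member passed the interaction test of genotype and sex (0 of 9 and 0% of all genes in limma, adjusted p = 1.00 for every member, with 0 of 9 and 2.65% of all genes at an unadjusted p below 0.05). The intervals are wide, since each sex had 2 arrays. For *Sox8* the male minus female difference of −0.21 had a 95% interval from −0.45 to 0.040, and for *Sox21* it was 0.037 with an interval from −0.15 to 0.22. Split by dye direction, *Sox21* had −0.20 with the mutant in Cy5 and −0.16 with the mutant in Cy3, *Sox8* −0.34 and −0.21, and *Sox3* 0.12 and 0.30, so the mean of each of these genes kept its sign. *Sox2* had −0.087 and 0.11 and *Sox10* 0.062 and −0.042, opposite in sign. Each direction had 2 arrays. The Cy3 mean of *Sox8* combined 0.0042 and −0.42, and the Cy5 mean of *Sox3* combined 0.24 and 0.0038.

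**Figure D4:**
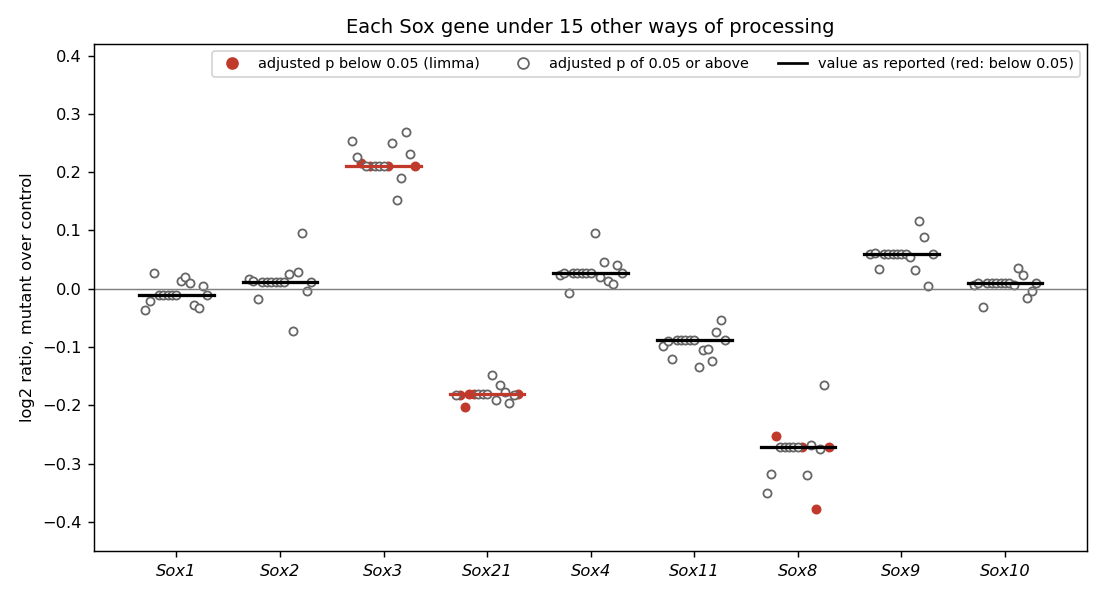
Limma estimate of the log2 ratio of mutant over control of 9 *Sox* genes as reported (bars) and under 15 other settings (points). Filled points passed an adjusted p below 0.05 from limma. *Sox3* stayed above 0 and *Sox8*, *Sox11* and *Sox21* below 0 under all 15, while *Sox3* passed in 4, *Sox8* in 4 and *Sox21* in 5 of them. Other filters, no dye term, the unpaired fits and a sex term cannot change the ratio of a member here, only its adjusted p.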

How the data were processed

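Each of 4 two-colour arrays compared a *Sox2-Tbx2LOF* with a control pool. Groups, sexes and dyes came from the labels. The authors deposited Agilent Feature Extraction 10.7.3.1 output, with intensity values of spots and local background that are not normalized, and Agilent's processed intensity. The deposited series value table holds a score per probe that matches a signed fold change (correlation with the ratios here 0.912 to 0.942, column medians of 0 on the log2 scale; its normalization is not given in the sources used here); 0 of its columns were of other samples. Background was corrected with normexp (offset 50) and ratios were normalized by loess without control and flagged spots (8.29% to 8.56% of gene spots). Unflagged spots of a probe (4 per probe) were averaged. A probe was well above background where at least 50% of its spots were, and was tested where this held in at least 4 of 8 channel measurements. The brightest probe stood for a gene. Levels are channels after Aquantile normalization. A lower limit of a fold sets the bright group against the higher of the dim probe's own signal and the lowest signal well above background. The fit used limma 3.58.1 in R 4.3.3 (2 residual and 5.65 prior degrees of freedom), was tested on simulated data, and pairs the pools by array, as they were hybridised. The methods' test was unpaired SAM; an unpaired limma comparison was the alternative run here. Array number limits precision. All arrays carry 1 scan date, so no scan block could be fitted. Named were all members, the other *Sox* genes, *Tbx2*, *Esr1* and, per marker list, the 3 past the threshold with the lowest p; genes with a pattern like a member's were to be named only for members past 1.5-fold, of which there were 0. The members and lists were chosen with earlier results of these data known. Some genes of the Schwann cell precursor list are counted but not reported here by name.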

Additional observations from a re-analysis of the deposited data

Results flagged for a closer look

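On array 3 the *Sox2* ratio of mutant over control was −0.26, whereas the other 3 arrays lay between 0.078 and 0.14. The gap to the nearest array was 0.835 of the whole range, which is beyond the 95% limit for 4 values. It was the only one of 42 sets of 4 values (ratios, control levels and mutant levels of 14 probes) to be so far apart, and chance alone gives this for about 1 in 20 sets. Array 3 compared male pools with the mutant in Cy5. The limma estimate of *Sox2* without this array is given with that gene's values.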

How the results depend on the processing

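Over 15 alternatives, the limma estimate of the ratio stayed above 0 for *Sox3* (0.15 to 0.27). It stayed below 0 for *Sox8* (−0.38 to −0.17), *Sox11* (−0.13 to −0.053) and *Sox21* (−0.20 to −0.15). *Sox9* also stayed above 0, and *Sox1*, *Sox2*, *Sox4* and *Sox10*, never past the threshold, changed sign in 5, 3, 1 and 3 of them. Other filters, no dye term, the unpaired fits and a sex term left the ratio of every member exactly as reported. In those settings the sign could not change, and only the adjusted p could. As reported, 1 *Sox* gene was higher and 1 lower. No *Sox* gene was higher (0) with the processed signals of the scanner software, an offset of 10 in normexp, no filter on dim probes, no dye term, the series value table, or without the replicate block (separate channels, unpaired, with and without a dye term). None was lower (0) with the processed signals, no dye term, the value table and both fits without the replicate block. With median centring and with sex as a term 2 were lower. With 1 array left out, 0 were higher and 0 to 1 lower. At 1.5-fold the counts were 0 throughout. Over all genes, 476 higher and 615 lower as reported became 236 and 380 with processed signals, 90 and 174 with no dye term, 157 and 257 with the value table, and without the replicate block 82 and 135 with a dye term and 72 and 125 with none. With 1 array left out they were 122 to 635 and 231 to 643. The cause of these shifts was not tested. Of the Schwann cell precursor list 6 genes were lower in each alternative, and of the neuron list 3 to 9. The single higher gene of these lists was lost in 13 and 9 of the 15 alternatives, those of cartilage and periotic mesenchyme in 5 and 3. With 4 arrays, ratios as small as those of *Sox3* and *Sox21* lie close to the threshold.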
